A study of Glycine max with 36 samples.

Results

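Cytochrome P450 genes were followed on the array through the 13 probes that its annotation assigns to a single gene whose symbol is CYP followed by 2 digits and a letter. They are 13 of 19200 probes and belong to 4 of the 527 genes that the annotation names in this way: CYP93E1 with 4 probes, CYP98A2 with 5, CYP97B2 with 3 and CYP83D1 with 1. All 4 genes were also found by gene ID in the gene reference used here. The rule used symbols alone and no measured value, although it was set with earlier results of these data known. AOS1, whose enzyme is also of the P450 kind, was left out.

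Cytochromes P450 are haem enzymes that insert an oxygen atom into small molecules with electrons from NADPH, passed on by a reductase. Plants use large families of them to make lignin, flavonoids, triterpenes, hormones and pigments, and to hydroxylate foreign compounds before sugar or glutathione is attached. Tolerance of soybean to bentazon is known to rest on such hydroxylation, and atrazine is known to be detoxified in tolerant plants mainly by glutathione conjugation. The genes named here are known for endogenous pathways. CYP93E1 is the beta-amyrin 24-hydroxylase of soyasaponin synthesis. CYP98A enzymes, characterised in Arabidopsis, hydroxylate p-coumaroyl esters on the way to lignin and chlorogenic acid. CYP97 enzymes of Arabidopsis hydroxylate carotenoid rings in the plastid. CYP83 enzymes of Arabidopsis act on aldoximes in glucosinolate synthesis, and soybean makes no glucosinolates.

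The plants were soybean (Glycine max) of cultivar Williams 82 at the V1 stage, about 2 weeks old, grown in a greenhouse at 25 C with 16 h days. They received a mist of atrazine (22 to 25 mM), a mist of bentazon (22 to 25 mM) or a mist of water with 1% of the adjuvant Herbimax, and RNA was taken 1, 2, 4 and 8 h later from the 3 leaflets, pooled, of the primary trifoliate leaf. The 12 RNAs (3 treatments at 4 times) were compared in a closed loop of 12 kinds of 2-colour hybridisation, with 1 array for each of 3 biological replicates, 36 arrays in all. Adjuvant is recorded here for the water mist only, so its effect and that of the herbicides cannot be told apart. The labels do not say whether the 3 replicates came from separate sowings. The p-values measure the spread between these arrays, which is partly technical. Over probes with all 36 values, the variance of an RNA extract was estimated at 0.214 of that of an array.

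Arrays held 16648 to 18484 log ratios each, with array medians of -0.05 to 0.05, and 17062 probes had enough values to be tested. Neither brightness nor any absolute level was used, so leaf markers could not be looked for in the RNAs and levels of different genes were not compared. The deposited ratio is taken as log2. Its numerator is not given in the sources used here. The sign was therefore set by the probe of PDR12, an ABC transporter gene chosen after its values were seen, to be positive under bentazon at 2 h (5.86 ± 0.59, SE, limma adjusted p = 5.31e-08). This is the sign obtained when the first-named RNA of an array's title is the numerator. If that order holds, a positive difference below, such as atrazine minus water, means more signal in the RNA from which the other is subtracted (here atrazine). The sources do not settle it, so values are described below as positive or negative, and no gene is said to be more or less expressed. Sizes, tests and the question of which probes share a sign do not depend on this choice.

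Of the 13 probes, 11 were tested (IDs, here shortened, all end in cDNA18kA). Of the 2 others, Gm17667 (CYP93E1) had values on 24 of 36 arrays and Gm13780 (CYP98A2) on 8, short of 2 of 3 values in every kind of hybridisation. Probe Gm14966 (CYP98A2) had 33 values and Gm02518 (CYP83D1) had 34, and the other 9 tested probes had all 36. Estimates are log2 differences ± SE of a linear model over all 36 arrays, and a probe was called at an adjusted p below 0.05, from limma's moderated test with Benjamini-Hochberg adjustment over all tested probes. Replicate values are those of each replicate's loop solved alone. Atrazine and water RNAs shared arrays at 2 and 4 h, bentazon and water RNAs at 1 and 8 h, and the other comparisons with water ran through a further RNA and carried larger errors.

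**Figure D1:**
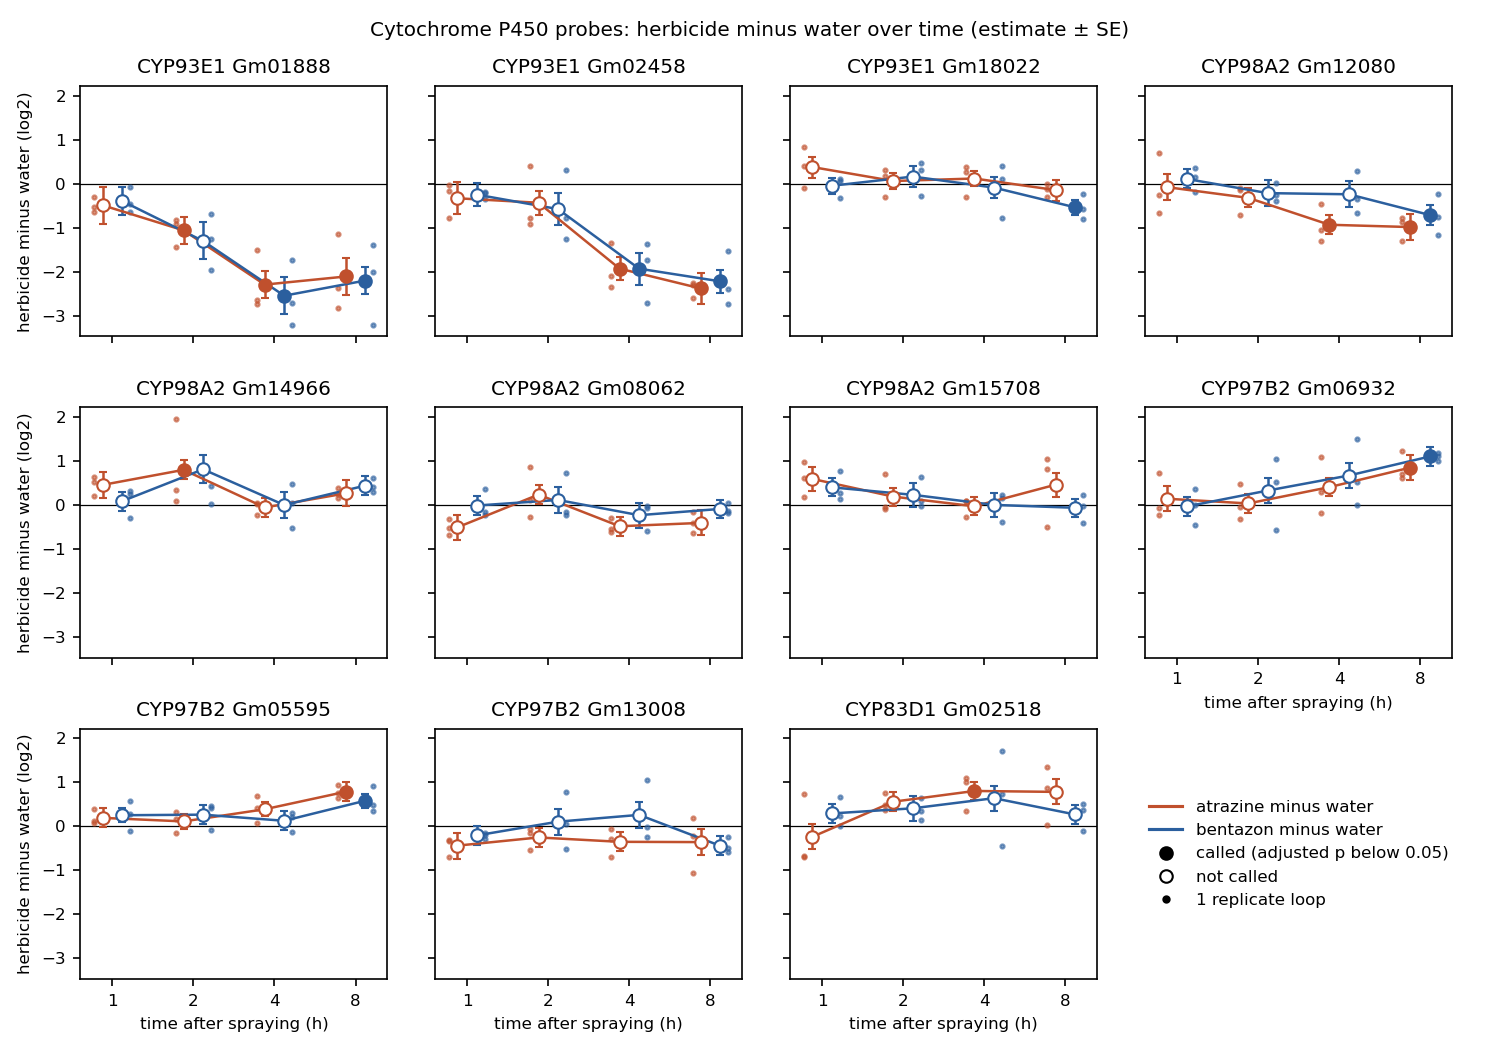
Log2 difference of atrazine (orange) and bentazon (blue) from water at 1, 2, 4 and 8 h for the 11 tested P450 probes. Circles with bars are estimates ± SE, filled where called, and dots are the 3 replicate loops. CYP93E1 probes Gm01888 and Gm02458 reach about -2 under both herbicides at 4 and 8 h, while CYP97B2 probes Gm06932 and Gm05595 lie on the positive side at 8 h.

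The first question was which P450 genes responded to each herbicide and when. No P450 probe was called for atrazine against water at 1 h, where 3.4% of all tested probes were called (1 of 11 P450 probes had an unadjusted p below 0.05). Of the 11, 2 were called at 2 h against 5.24% of all probes, 4 were called at 4 h against 17.9%, and 5 were called at 8 h against 11.7%. For bentazon against water, 0 of 11 were called at 1 h (3.35% of all, and none at an unadjusted p below 0.05) and 0 of 11 at 2 h (7.58% of all, 2 of 11 at an unadjusted p below 0.05). At 4 h 2 of 11 were called for bentazon, against 13.4% of all, and at 8 h 6 of 11, against 16.3%. The probes of a gene are not independent, so these shares describe 4 genes. The median over the 11 probes stayed near that of all probes, for example -0.15 against 0.03 for atrazine at 8 h and -0.09 against 0.02 for bentazon at 8 h, because positive and negative probes stood side by side. In all, 8 of the 11 probes were called in at least 1 of the 12 comparisons between treatments at 1 time, and Gm08062 and Gm15708 (CYP98A2) and Gm13008 (CYP97B2) in none.

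CYP93E1, the triterpene hydroxylase gene, gave the largest differences of the family. At 4 h its probe Gm01888 differed between atrazine and water by -2.73, -2.64 and -1.51 in replicates 1 to 3, which gave -2.29 ± 0.31 (adjusted p = 2.09e-06). Bentazon minus water at the same time was -2.70, -3.20 and -1.73 in the replicates, and the estimate was -2.54 ± 0.42 (adjusted p = 9.31e-05). Replicate 3 was closest to 0 each time, yet no replicate of either herbicide overlapped a water replicate at 4 h. The 3 arrays that carried the atrazine and water RNAs of 4 h together read -2.78, -2.73 and -1.61 for atrazine minus water.

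Gm01888 kept this size at 8 h. Atrazine minus water was -2.37, -2.82 and -1.13 in the replicates (-2.11 ± 0.42, adjusted p = 0.000798), and bentazon minus water was -2.00, -3.21 and -1.39 (-2.20 ± 0.31, adjusted p = 2.18e-05). Herbicide and water replicates again did not overlap. At 2 h the atrazine replicates gave -1.45, -0.91 and -0.83 (-1.06 ± 0.31, adjusted p = 0.0401), a call that was lost without replicate 1 (adjusted p = 0.44), replicate 2 (0.0763) or replicate 3 (0.057) and with a replicate block (0.0528). Bentazon at 2 h gave -1.25, -1.95 and -0.70 (-1.30 ± 0.42, adjusted p = 0.0523) and lay close to the threshold, since it was called without replicate 3 (adjusted p = 0.0397) and in 5 other alternatives with all replicates (adjusted p of 0.00659 to 0.0479). At 1 h the values were -0.49 ± 0.42 for atrazine and -0.39 ± 0.31 for bentazon, with overlapping replicates and no call. The atrazine call at 8 h was lost without replicate 1 (-1.97, adjusted p = 0.0502).

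A second CYP93E1 probe, Gm02458, ran alongside. Atrazine minus water at 4 h was -2.10, -2.34 and -1.36 in the replicates (-1.93 ± 0.27, adjusted p = 2.88e-06), and at 8 h it was -2.30, -2.59 and -2.25 (-2.38 ± 0.36, adjusted p = 2.84e-05). Bentazon minus water at 4 h was -1.72, -2.70 and -1.37 (-1.93 ± 0.36, adjusted p = 0.000411), and at 8 h it was -2.40, -2.72 and -1.53 (-2.22 ± 0.27, adjusted p = 2.75e-06). Each of these 4 differences was larger than the spread between replicates, with no overlap of herbicide and water replicates, and each stayed called under all 13 alternatives of processing, with a highest adjusted p of 0.0341. At 2 h the probe was not called, with -0.43 ± 0.27 for atrazine and -0.58 ± 0.36 for bentazon, and its replicate 3 lay on the other side of 0 under both (0.40 and 0.31). Gm02458 was the only P450 probe with a called dye term (-0.30, adjusted p = 0.0441), which the model removes.

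The 2 other CYP93E1 probes gave smaller values. Gm18022 was called once, for bentazon at 8 h, at -0.58, -0.81 and -0.23 in the replicates (-0.54 ± 0.18, adjusted p = 0.0359), and bentazon and water replicates overlapped by a small margin. That call was lost without replicate 1 (adjusted p = 0.243) or replicate 2 (0.28), and with arrays scaled (0.076), array weights (0.114) or loops solved alone (0.115). For atrazine at 8 h it read -0.15 ± 0.24, and at 4 h its values were 0.12 ± 0.18 for atrazine and -0.09 ± 0.24 for bentazon. Untested Gm17667, fitted only when no filter was set, read -0.07 for atrazine at 4 h (adjusted p = 0.911) and -0.29 at 8 h (0.673). For bentazon it read -0.64 at 4 h (adjusted p = 0.425), on the side of Gm01888 and Gm02458, and 0.01 at 8 h (0.991). The probes are cDNAs, and whether transcripts of related genes bound to some of them was not tested.

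**Figure D2:**
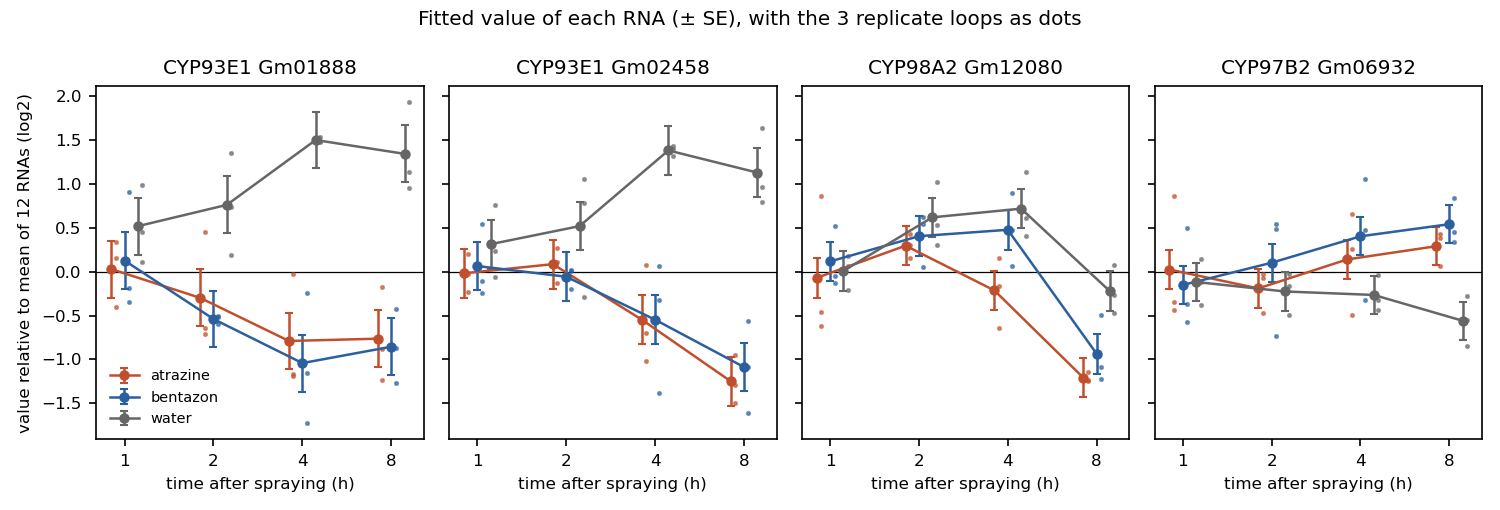
Fitted log2 value of each of the 12 RNAs, relative to their mean, over 1, 2, 4 and 8 h for atrazine (orange), bentazon (blue) and water (grey) in 4 probes. Circles with bars are estimates ± SE and small dots are the 3 replicate loops. In both CYP93E1 probes the herbicide and water lines part with time, the water RNAs of 4 and 8 h standing at one end and the herbicide RNAs of 4 and 8 h at the other.

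The order of the 12 RNAs in Gm01888 placed all 4 water RNAs at the positive end, relative to the mean of the 12. They read 0.52 ± 0.32 (1 h), 0.76 ± 0.32 (2 h), 1.50 ± 0.32 (4 h) and 1.34 ± 0.32 (8 h). The herbicide RNAs of 1 h stood at 0.03 for atrazine and 0.13 for bentazon, those of 2 h at -0.30 for atrazine and -0.54 for bentazon, and the most negative were those of 4 h (-0.79 for atrazine and -1.04 for bentazon) and of 8 h (-0.76 for atrazine and -0.86 for bentazon). No step between neighbours in this order exceeded 1.26 of its SE, so only RNAs farther apart in it differed. In Gm02458 the water RNAs were again the 4 most positive, from 0.31 at 1 h to 1.38 at 4 h, and the most negative were atrazine at 8 h (-1.25) and bentazon at 8 h (-1.09). The values are centred on the mean of the 12, so they do not show whether herbicide or water RNAs moved. Within water, no P450 probe was called at 2, 4 or 8 h against 1 h, where 0%, 0% and 1.68% of all tested probes were called. At an unadjusted p below 0.05, 1 of 11 P450 probes passed at each of these times. Gm02458 read 1.07 ± 0.48 and Gm01888 0.98 ± 0.56 for 4 h minus 1 h in water.

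Over the 12 RNA values, which share arrays and the same loop, Gm01888 and Gm02458 had a Pearson r of 0.93. The r with Gm18022 was 0.09 for Gm01888 and 0.01 for Gm02458, so the 3 tested probes of CYP93E1 fell into a pair and a single probe.

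**Figure D3:**
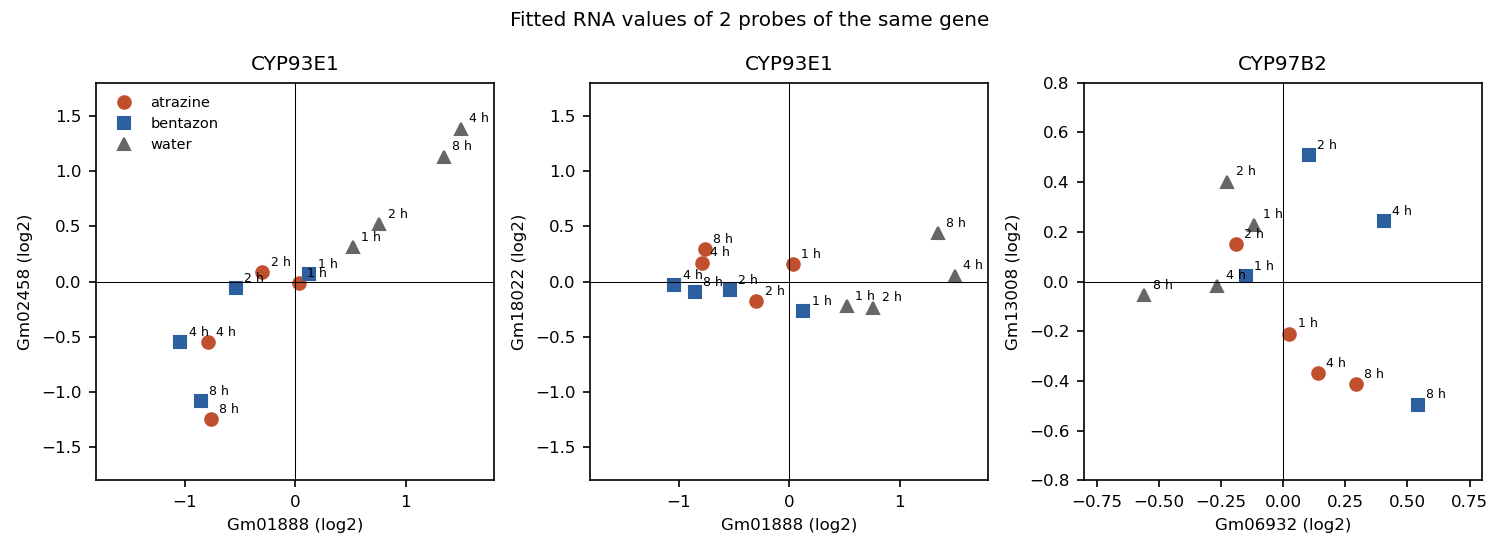
Fitted log2 values of the 12 RNAs for pairs of probes of 1 gene, with atrazine as circles, bentazon as squares and water as triangles, each marked with its time. The left panel shows CYP93E1 probes Gm01888 and Gm02458 (r = 0.93), the middle panel Gm01888 and Gm18022 (r = 0.09), and the right panel CYP97B2 probes Gm06932 and Gm13008 (r = -0.37).

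CYP98A2, the gene named for the hydroxylase step toward lignin and chlorogenic acid, was called mainly in its probe Gm12080. Atrazine minus water at 4 h was -1.05, -1.30 and -0.46 in the replicates, or -0.93 ± 0.22 (adjusted p = 0.00246). At 8 h it was -0.88, -1.31 and -0.77, or -0.99 ± 0.29 (adjusted p = 0.0234). Atrazine and water replicates did not overlap at either time. Bentazon minus water was -0.34, -0.66 and 0.28 at 4 h (-0.24 ± 0.29, adjusted p = 0.65), with overlapping replicates, and -0.23, -1.16 and -0.75 at 8 h (-0.71 ± 0.22, adjusted p = 0.0235), where the bentazon and water replicates just failed to overlap. Without replicate 2 the atrazine calls at 4 h (-0.75, adjusted p = 0.129) and 8 h (-0.82, adjusted p = 0.295) and the bentazon call at 8 h (-0.49, adjusted p = 0.36) were lost. The atrazine call at 8 h was also lost without replicate 1 (adjusted p = 0.0641), and the bentazon call at 8 h without replicate 3 (adjusted p = 0.0788). With loops solved alone both calls at 8 h were lost (adjusted p = 0.0527 for atrazine and 0.077 for bentazon). Arrays scaled lost the bentazon call at 8 h as well (adjusted p = 0.0556).

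In the order of RNAs of Gm12080, atrazine at 8 h (-1.21 ± 0.23) and bentazon at 8 h (-0.94 ± 0.23) stood apart from the rest. The next RNA, water at 8 h (-0.22 ± 0.23), lay 0.71 away from bentazon at 8 h, which was 3.29 times the SE of that step, and no later step exceeded 0.529 of its SE. At the positive end were water at 4 h (0.72) and water at 2 h (0.62).

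The 3 other tested CYP98A2 probes did not share this pattern. Gm14966 was called for atrazine at 2 h, with 0.09, 0.35 and 1.96 in the replicates (0.80 ± 0.22, adjusted p = 0.0255). This positive value rested on replicate 3, without which it was 0.22 (adjusted p = 0.671), and it was not called without replicate 1 (1.16, adjusted p = 0.104) or replicate 2 (1.02, adjusted p = 0.1) either. Loops solved alone did not call it (adjusted p = 0.219). In replicate 3 this probe had no value on either array that carried the bentazon RNA of 2 h, so the bentazon estimate at 2 h (0.81 ± 0.32, adjusted p = 0.134) had a loop value in 2 replicates only, of 0.03 and 0.42. Gm08062 ranged from -0.51 to 0.24 and Gm15708 from -0.06 to 0.59 over the 8 comparisons with water, with no call. At 8 h under atrazine Gm15708 read 1.05, 0.82 and -0.49 in the replicates (0.46 ± 0.27), so that replicate 3 opposed the others, and without replicate 3 it was called at 0.94 (adjusted p = 0.0255). Between pairs of CYP98A2 probes r over the 12 RNA values ran from -0.71 to 0.40. Untested Gm13780 had values on too few arrays for any comparison.

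CYP97B2, of the family that hydroxylates carotenoids in Arabidopsis, was positive at 8 h under both herbicides in 2 of its 3 probes. Gm06932 gave 1.19, 1.00 and 1.12 for bentazon minus water at 8 h (1.10 ± 0.21, adjusted p = 0.000671), the narrowest spread of the replicates of any called P450 value of a herbicide against water (SD 0.09). It stayed called under all 13 alternatives. Atrazine minus water at 8 h was 1.23, 0.62 and 0.70 (0.85 ± 0.28, adjusted p = 0.0456), a call lost without replicate 1 (0.66, adjusted p = 0.375) or replicate 2 (0.97, adjusted p = 0.197) and with a replicate block (adjusted p = 0.0574). With all replicates kept it was also lost with no dye term (adjusted p = 0.0533), arrays scaled (0.0821) or loops solved alone (0.0875). Herbicide and water replicates did not overlap at 8 h. At 4 h the replicates of Gm06932 disagreed, with 1.09, 0.30 and -0.18 for atrazine and 1.49, 0.52 and -0.01 for bentazon, neither called. Without replicate 3 both were called at 4 h, at 0.70 (adjusted p = 0.0252) for atrazine and 1.01 (adjusted p = 0.0211) for bentazon.

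The second CYP97B2 probe, Gm05595, was positive in every replicate at 8 h. It read 0.64, 0.95 and 0.77 for atrazine minus water (0.79 ± 0.22, adjusted p = 0.0152) and 0.35, 0.90 and 0.49 for bentazon minus water (0.58 ± 0.16, adjusted p = 0.0137), with no overlap with water. Both calls were lost without replicate 1 (adjusted p = 0.134 for atrazine and 0.0838 for bentazon) or replicate 2 (0.213 for atrazine and 0.283 for bentazon). With loops solved alone both were lost too (adjusted p = 0.0945 for atrazine and 0.0937 for bentazon). In the order of RNAs the most positive was atrazine at 8 h in Gm05595 (0.55 ± 0.17), followed by atrazine at 4 h (0.40) and bentazon at 8 h (0.35). In Gm06932 it was bentazon at 8 h (0.54 ± 0.22), followed by bentazon at 4 h (0.40) and atrazine at 8 h (0.29), and in both probes no neighbouring step exceeded 1.4 of its SE. The third probe, Gm13008, went the other way without a call, at -0.36 ± 0.29 for atrazine and -0.44 ± 0.22 for bentazon at 8 h. Its r over the 12 RNA values was -0.765 with Gm05595 and -0.367 with Gm06932, whereas Gm05595 and Gm06932 had an r of 0.722.

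CYP83D1 had a single probe, Gm02518, with 1 call. Atrazine minus water at 4 h was 1.09, 1.00 and 0.36 in the replicates (0.80 ± 0.21, adjusted p = 0.00703), all positive, although atrazine and water replicates overlapped across loops. The call was lost without replicate 1 (0.71, adjusted p = 0.0773) or replicate 2 (0.68, adjusted p = 0.167). At 8 h atrazine minus water was 1.35, 0.03 and 0.88 (0.78 ± 0.28, adjusted p = 0.0713). Bentazon minus water was 1.72, 0.74 and -0.46 at 4 h (0.64 ± 0.28, adjusted p = 0.14), was called there without replicate 3 (1.16, adjusted p = 0.0253), and was 0.27 ± 0.21 at 8 h. The order of the RNAs ran from water at 8 h (-0.68 ± 0.23) to atrazine at 4 h (0.67 ± 0.22) in steps of at most 0.785 of their SE.

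The herbicides, unlike in structure but sharing photosystem II as their target, were then compared with each other over the 44 pairs of probe and time. Atrazine and bentazon are compared with the same water RNAs, so their values against water are not independent, and the direct difference is the test. No P450 probe was called at 1 h (5.84% of all tested probes called, 3 of 11 P450 probes at an unadjusted p below 0.05), at 2 h (9.62%, 0 of 11) or at 8 h (6.25%, 3 of 11). At 4 h 1 of 11 was called, against 10.8% of all, so the count does not mark out the P450 probes. That probe was Gm12080 of CYP98A2, with -0.71, -0.63 and -0.74 in the replicates (-0.69 ± 0.22, adjusted p = 0.0355). All 3 replicates agreed within an SD of 0.05, but the call was lost without replicate 1 (adjusted p = 0.121), replicate 2 (0.183) or replicate 3 (0.104). With all replicates kept it was lost with no dye term (adjusted p = 0.0592), arrays scaled (0.0748) or loops solved alone (0.16).

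For CYP93E1 probes Gm01888 and Gm02458 the direct difference at 4 and 8 h was small beside the distance from water. In Gm01888 atrazine minus bentazon was 0.25 at 4 h (95% interval -0.38 to 0.89) and 0.09 at 8 h (-0.54 to 0.73). In Gm02458 it was 0.00 at 4 h (-0.54 to 0.55) and -0.16 at 8 h (-0.71 to 0.38). The upper bounds leave room for a difference of 0.89 in Gm01888 at 4 h, so a p above the threshold does not show that the herbicides acted alike. In Gm18022, the third CYP93E1 probe, it was 0.42 at 1 h (0.06 to 0.79, adjusted p = 0.174) and 0.39 at 8 h (0.03 to 0.75, adjusted p = 0.205), larger than its -0.15 for atrazine minus water at 8 h. CYP97B2 gave -0.25 at 8 h in Gm06932 (-0.68 to 0.18) and 0.20 in Gm05595 (-0.13 to 0.53), with opposite signs in its 2 responding probes. The widest uncalled gaps were those of Gm13008 at 4 h (-0.61, -1.05 to -0.17, adjusted p = 0.0662), CYP83D1 at 1 h (-0.53, -0.96 to -0.10, adjusted p = 0.144) and 8 h (0.51, 0.09 to 0.94, adjusted p = 0.153), and Gm15708 at 8 h (0.52, 0.11 to 0.94, adjusted p = 0.129). Gm13008 at 4 h (-0.89, adjusted p = 0.0291) and Gm15708 at 8 h (0.83, adjusted p = 0.0205) were called without replicate 3.

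**Figure D4:**
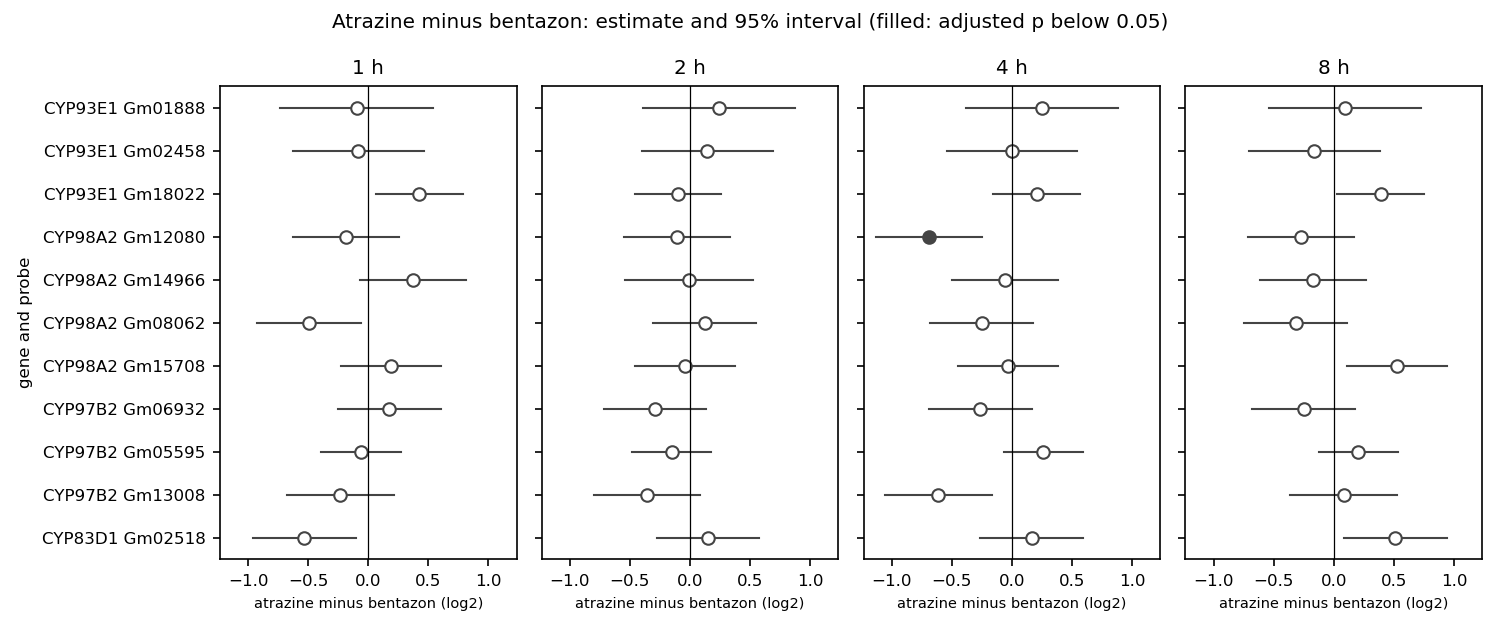
Log2 difference of atrazine from bentazon for the 11 tested P450 probes at 1, 2, 4 and 8 h, with 95% intervals as lines. The filled circle, CYP98A2 probe Gm12080 at 4 h (-0.69), is the only called difference, and the intervals of CYP93E1 probes Gm01888 and Gm02458 include 0 at every time.

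Change over time was tested within each treatment and in the effect of each herbicide. From 1 to 8 h in atrazine 4 of 11 P450 probes were called, against 33.3% of all tested probes: Gm12080 of CYP98A2 (-1.14 ± 0.22, adjusted p = 0.000108), Gm02458 of CYP93E1 (-1.23 ± 0.27, adjusted p = 0.00051), Gm05595 of CYP97B2 (0.64 ± 0.16, adjusted p = 0.00246) and Gm01888 of CYP93E1 (-0.79 ± 0.31, adjusted p = 0.0483). The last was lost without replicate 1 (-0.40, adjusted p = 0.556) or replicate 2 (-0.67, adjusted p = 0.154), with a replicate block (adjusted p = 0.0592) and with generalised least squares (adjusted p = 0.0528), arrays scaled (0.155) or loops solved alone (0.194). With loops solved alone Gm12080 (adjusted p = 0.0583) and Gm05595 (0.0877) were lost as well, and only Gm02458 stayed called under every alternative. Arrays carried the atrazine RNAs of 8 and 1 h together, and likewise the water RNAs of 1 and 2 h, while the other steps from 1 h ran through further RNAs. In bentazon 1 of 11 was called from 1 to 8 h, against 13.9% of all, again Gm12080 (-1.05 ± 0.34, adjusted p = 0.0341), lost without replicate 1 (adjusted p = 0.133), replicate 2 (0.198) or replicate 3 (0.106). With all replicates kept it was lost with no dye term (adjusted p = 0.057), arrays scaled (0.143) or array weights (0.146). No P450 probe was called at 2 or 4 h against 1 h in either herbicide, where 0% and 1.3% of all tested probes were called in atrazine and 0% and 0.211% in bentazon. At an unadjusted p below 0.05, 1 of 11 P450 probes passed at each time in atrazine, and 0 of 11 at 2 h and 1 of 11 at 4 h in bentazon.

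The effect of bentazon against water differed between 8 and 1 h in 3 of 11 probes, against 4.99% of all tested probes. These were Gm02458 (-1.97 ± 0.36, adjusted p = 0.00209) and Gm01888 (-1.81 ± 0.42, adjusted p = 0.0132) of CYP93E1 and, on the positive side, Gm06932 of CYP97B2 (1.13 ± 0.28, adjusted p = 0.0195). For atrazine 1 of 11 was called, against 3.58% of all: Gm02458 (-2.05 ± 0.46, adjusted p = 0.00886). Gm01888 read -1.62 ± 0.53 for atrazine (adjusted p = 0.0869) and was called without replicate 3 (-2.12, adjusted p = 0.0392). Without replicate 1 the estimates stayed close, at -1.86 for Gm02458, -1.74 for Gm01888 and 1.11 for Gm06932 under bentazon and -2.31 for Gm02458 under atrazine. None was then called (adjusted p = 0.182, 0.271, 0.265 and 0.11), in a fit that called 0 of 17062 probes for bentazon and 29 for atrazine. Without replicate 2 the Gm02458 call under bentazon held, and the others had adjusted p of 0.116 for Gm01888, 0.221 for Gm06932 and 0.136 for Gm02458 under atrazine. With all replicates kept, Gm06932 was lost with loops solved alone (adjusted p = 0.0585). Gm02458 under atrazine was lost with arrays scaled (adjusted p = 0.0623).

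For each gene the named genes with the most similar pattern were sought among 699 tested probes of other named genes, by Pearson r over the 12 RNA values, as a description of values that share arrays. Nearest to CYP93E1 (Gm01888) were a probe of F3H, flavanone 3-hydroxylase (r = 0.95), and CWINV, a cell wall invertase gene (r = 0.95). The F3H probe read -1.80 for atrazine and -2.15 for bentazon at 4 h. Nearest to CYP97B2 (Gm06932) were GLXI (r = 0.905), a glyoxalase gene, and GSTZ3 (r = 0.89), of the zeta class of glutathione transferases. For CYP98A2 (Gm12080) they were GPA1 (r = 0.885), of a heterotrimeric G protein alpha subunit, and UBC4 (r = 0.881), of a ubiquitin-conjugating enzyme, and for CYP83D1 they were DGD2 (r = 0.899), of galactolipid synthesis, and the aquaporin PIP2-6 (r = 0.889).

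Other genes of the pathways around the P450s were read from lists chosen with earlier results of these data known. Phenylpropanoid and isoflavonoid synthesis had 77 tested probes of 20 genes. Most symbols on this list are of flavonoid and isoflavonoid genes, not of the branch toward lignin and chlorogenic acid named above for CYP98A enzymes. At 8 h 2 were called positive and 17 negative for atrazine (58 not called, median -0.20 against 0.03 over all tested probes), and 3 positive and 15 negative for bentazon (59 not called, median -0.35 against 0.02). Of all tested probes 11.7% were called for atrazine and 16.3% for bentazon at 8 h. At 4 h 3 were positive and 9 negative for atrazine (65 not called), and 0 positive and 14 negative for bentazon (63 not called). Of all tested probes 17.9% were called for atrazine and 13.4% for bentazon at 4 h, so these counts alone do not mark out the list. Most of the negative calls at 4 h were F3H, with 8 of its 9 probes between -1.93 and -1.25 for atrazine and 8 of 9 between -2.31 and -1.72 for bentazon. FLS1, flavonol synthase, had 3 of 5 probes called for atrazine (-1.31 to -0.82) and 5 of 5 for bentazon (-1.32 to -0.57) at 8 h. On the positive side CHR1, chalcone reductase, was called in 1 of 5 probes at 8 h, at 1.99 for atrazine and 0.97 for bentazon.

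Enzymes that attach glutathione or sugar, together with ABC transporters, made a list of 33 tested probes of 19 genes. For bentazon 8 were called positive and 0 negative at 2 h (25 not called), among them PDR12, whose sign there was set as positive, and 5 positive and 4 negative at 8 h (24 not called). Of all tested probes 7.58% were called for bentazon at 2 h and 16.3% at 8 h. For atrazine 1 was positive and 2 negative at 2 h (30 not called), and 1 positive and 2 negative at 8 h (30 not called). The shares of all tested probes called for atrazine were 5.24% at 2 h and 11.7% at 8 h. The bentazon calls at 2 h included 1 of 2 probes of GSTL3 (4.41) and 1 of 3 of GSTU30 (3.97), at a time when no P450 probe was called. The list meant for triterpenoid synthesis, the pathway of CYP93E1, held only 2 tested probes of LOC732565, matched by the letters of its synonym SGT3. Whether this gene acts in that pathway was not tested. Its probes were called positive for atrazine at 4 h (0.96 and 1.64), where 17.9% of all tested probes were called, and not for bentazon (13.4% of all). In the direct comparison at 4 h atrazine minus bentazon was called in 2 of 2 probes (0.845 and 1.34, highest adjusted p = 0.0289), against 10.8% of all. At 2 h 1 of 2 was called for atrazine against water (1.01, adjusted p = 0.0474), against 5.24% of all. No tested probe of carotenoid or abscisic acid synthesis and none of P450 reductase or cytochrome b5 was named in the annotation used here, so the surroundings of CYP97B2 and the electron donors could not be described. AOS1, the allene oxide synthase of jasmonate synthesis, was called at -1.09 for atrazine at 4 h and, for bentazon, at -1.49 at 4 h and -1.29 at 8 h.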

How the data were processed

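RNA of 12 treatment and time groups was measured on 36 2-colour cDNA arrays in 3 biological replicates. Per the labels' protocols, RNA was extracted with Trizol and labelled through aminoallyl-dUTP, with Cy3 for the first-named RNA. The values the authors deposited are log ratios, 1 for each probe on an array, and were read as log2. Sources used here give neither their base nor their numerator, background correction or normalization. Technical repeats with dye swaps are mentioned in the labels, but each comparison appears in 1 orientation, and no slide or scan date is given.

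Probes with at least 2 of 3 values in each of 12 hybridisation types (17062) entered 1 linear model each, with 11 RNA differences and 1 dye term. limma 3.58.1 in R 4.3.3 moderated the variances (24 residual and 7.56 prior degrees of freedom for complete probes). The model was tested on simulated data. Benjamini-Hochberg adjustment covered all tested probes within a contrast (threshold 0.05). Figures used matplotlib 3.10.9.

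All probes of the member genes are described. The lead probe of a gene is the one with the most calls, then the largest sum of absolute t. The members and lists were chosen with earlier results of these data known. Alternatives changed the dye term, array scaling, centring, weights, prior, filter, extract effect, unit of analysis and replicates. Among arrays that share a replicate number but no RNA, deviations correlated with a median of 0.01, and the numbers were not taken to pair samples. Among arrays of 1 replicate that share an RNA, the median absolute correlation was 0.215 (range of signed values -0.721 to 0.33), and the generalised least squares alternative allows for a shared extract effect. Arrays of 1 type correlated between -0.29 and 0.79 over all probes. Sequences of probes and proteins were not used here. The number of arrays limits the precision.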

Additional observations from a re-analysis of the deposited data

Results flagged for a closer look

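Differences between times were found in the effect of a herbicide against water. The atrazine effect at 8 h minus that at 1 h was -2.05 in CYP93E1 probe Gm02458 (adjusted p = 0.00886), called in 1 of 11 P450 probes against 3.58% of all tested probes. The bentazon effect at 8 h minus that at 1 h was -1.97 in Gm02458 and -1.81 in Gm01888, both of CYP93E1, and 1.13 in CYP97B2 probe Gm06932 (adjusted p = 0.00209, 0.0132 and 0.0195). For bentazon these were 3 of 11 P450 probes, against 4.99% of all tested probes. Without replicate 1, which leaves 2 loops, the values were -2.31 for atrazine in Gm02458 and -1.86, -1.74 and 1.11 for bentazon in Gm02458, Gm01888 and Gm06932. None was then called, but that fit called 29 of 17062 probes for atrazine and 0 for bentazon.

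Between the herbicides 1 of 11 P450 probes was called at 4 h, where 10.8% of all tested probes were called, so the count does not mark out the P450 probes. In that probe, Gm12080 of CYP98A2, atrazine minus bentazon was -0.69 (adjusted p = 0.0355). It was negative in 3 of 3 replicates and not called when any replicate was left out. With no dye term, arrays scaled or loops solved alone it was not called either.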

How the results depend on the processing

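Among the 29 called values named above, 9 stayed called under each of the 13 alternatives that gave a value, and none changed sign. These 9 were CYP93E1 Gm01888 (atrazine at 4 h, bentazon at 4 and 8 h), Gm02458 (both herbicides at 4 and 8 h, and 8 h minus 1 h in atrazine) and CYP97B2 Gm06932 (bentazon at 8 h). Counts of P450 probes called moved by over 1.5 times as follows, each beside the count reported. For atrazine against water at 2 h (2), they were 4 with array weights, 1 with probes that had all 36 values and 1 with loops solved alone, and at 8 h (5) 2 with loops solved alone. For bentazon against water at 2 h (0), 1 with arrays scaled, array weights, all 36 values, generalised least squares or loops solved alone, at 4 h (2) 4 with weights, and at 8 h (6) 3 with loops solved alone. For atrazine against bentazon, weights gave 1 at 1 h (0), 2 at 4 h (1) and 4 at 8 h (0), and at 4 h no dye term, arrays scaled and loops solved alone gave 0. For later times against 1 h, loops solved alone gave 1 in atrazine (4), and in bentazon (1) no dye term and arrays scaled gave 0, weights 3 and generalised least squares 2. For the atrazine effect at 8 h minus 1 h (1), arrays scaled gave 0 and weights 6. Leaving out 1 replicate gave 0 to 0 for atrazine against water at 2 h, 2 to 5 at 4 h and 1 to 6 at 8 h, 0 to 1 for bentazon against water at 2 h, 2 to 4 at 4 h and 3 to 5 at 8 h, 0 to 1 for atrazine against bentazon at 4 h and at 8 h, 0 to 1 for later times in bentazon, 0 to 2 for the atrazine effect and 0 to 3 for the bentazon effect at 8 h minus 1 h. With a replicate block in place of the dye term, 1 probe was called for atrazine against water at 2 h, 3 calls were lost (Gm01888 for atrazine at 2 h and for 8 h minus 1 h in atrazine, Gm06932 for atrazine at 8 h), and no other call changed. Calls over all 17062 tested probes moved with the settings too. With arrays scaled they went from 1293 to 1528 for bentazon against water at 2 h. For atrazine against bentazon at 4 h they went from 1849 to 1354 with arrays scaled and to 1679 with no dye term. For 8 h minus 1 h in bentazon they went from 2374 to 1654 with arrays scaled and to 2221 with no dye term. For the atrazine effect at 8 h minus 1 h they went from 611 to 360 with arrays scaled. A replicate block moved them from 894 to 812 for atrazine against water at 2 h. For array weights and loops solved alone they are not given here, so those P450 counts stand without a share of all probes. The P450 counts are therefore not a measure of the P450 probes alone. The cause of these moves was not tested, except that leaving out a replicate leaves 2 loops. All estimates rest on 3 loops, and signal over background is not known here.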

Other observations

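Other P450 genes named on the array lie outside the symbol rule. IFS1 and IFS2, the isoflavone synthase genes, had 2 and 7 tested probes and no call against water or between the herbicides. IFS2 ranged from -0.11 to 0.43 for atrazine and from -1.06 to -0.59 for bentazon at 8 h, and atrazine minus bentazon was between 0.86 and 1.02 over its 7 probes (lowest adjusted p = 0.127). AOS2, a second allene oxide synthase gene, was called once, for bentazon at 8 h (-0.81, adjusted p = 0.0443), and read -0.81 for atrazine at that time without a call (adjusted p = 0.177). These values were looked at after the results above were known.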
